A study of Mus musculus with 8 samples.

Results

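Cytochrome P450 enzymes of families 1 to 4 were followed in mouse liver as 77 genes of the 37583 in the deposited count table: every row whose gene name begins with Cyp, a family number from 1 to 4 and a subfamily letter, pseudogenes left out. They fall into 22 subfamilies, and 72 of them had enough counts to be tested. RNA was sequenced from livers of C57BL6/CBA mice at 8 months in 3 groups: 2 libraries of untreated wild type (WT), 4 libraries labelled PR-SET7_LOBE and 2 libraries labelled DEN_WT. The PR-SET7_LOBE mice carry the genotype PR-SET7_LX_ALB_CRE, in which Cre recombinase under the albumin promoter inactivates Pr-Set7, the histone H4 lysine monomethyltransferase, in hepatocytes, the cells in which that promoter is active; the word LOBE is not explained. The series title names hepatocyte necrosis and liver carcinoma in such mice. The DEN_WT mice have the wild-type genotype and received an intraperitoneal injection of diethylnitrosamine (DEN), a liver carcinogen, at the age of 15 days, at a volume labelled 25 ml per kg with no concentration. The sex of the mice is not in the labels, and nothing there says whether replicates are separate animals, so p-values measure the spread between these libraries, which may be technical.

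P450 enzymes are heme proteins of the endoplasmic reticulum that use molecular oxygen and electrons from P450 reductase to oxidise lipophilic compounds. Families 1 to 3 handle mostly drugs, carcinogens, steroids and plant compounds, and family 4 oxidises the end of fatty acid chains. Hepatocytes around the central vein hold most of these enzymes, many of them are induced through the receptors AHR, CAR, PXR and PPARA, and in the mouse several differ between the sexes under the control of growth hormone. DEN itself becomes a DNA-damaging agent only after oxidation by P450s, above all Cyp2e1 and Cyp2a5.

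P450 genes lie in clusters of recent duplicates, and 2 pairs of close copies on chromosome 7 carry much of what follows. How reads that map to several places were treated is not given in the sources used here, so the bases that tell the copies apart are shown. Coding positions are counted from 1 at the first base of the start codon, and the capitals mark the differing bases. Cyp2a4 and Cyp2a5 differ at 23 of 1482 coding bases (98.45% identity), and their longest identical run is 216 bases. In the 60 bases from position 596 to 655 the substitutions from Cyp2a4 to Cyp2a5 are T603G, A607C, C625T and G655C.
Cyp2a4: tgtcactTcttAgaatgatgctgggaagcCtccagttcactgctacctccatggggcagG
Cyp2a5: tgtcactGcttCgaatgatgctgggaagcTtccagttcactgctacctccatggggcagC

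Cyp2a12 and Cyp2a22, the other pair, differ at 45 of 1476 coding bases (96.95% identity). In the 60 bases from position 1277 to 1336 the substitutions from Cyp2a12 to Cyp2a22 are C1295T, T1307C, C1311T, G1318T, C1328G and G1336C.
Cyp2a12: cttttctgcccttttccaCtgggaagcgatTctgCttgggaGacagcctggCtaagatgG
Cyp2a22: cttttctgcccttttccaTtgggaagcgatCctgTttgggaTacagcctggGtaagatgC

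The identity of the first pair continues upstream. The 250 bases before the start of each gene are shown from RefSeq on GRCm38.p6 (chr7:26306942-26307191 and chr7:26835089-26835338, both on the plus strand), with capitals where they differ or do not align. Over 249 aligned bases there were 4 substitutions (98.4% identity), although the ratio of the 2 transcripts differed between groups as given further on.
Cyp2a4: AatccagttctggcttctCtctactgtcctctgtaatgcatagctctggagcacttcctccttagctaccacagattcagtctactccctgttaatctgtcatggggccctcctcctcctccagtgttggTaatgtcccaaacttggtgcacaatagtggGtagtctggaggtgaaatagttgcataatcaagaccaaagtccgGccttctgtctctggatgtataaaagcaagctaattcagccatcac
Cyp2a5: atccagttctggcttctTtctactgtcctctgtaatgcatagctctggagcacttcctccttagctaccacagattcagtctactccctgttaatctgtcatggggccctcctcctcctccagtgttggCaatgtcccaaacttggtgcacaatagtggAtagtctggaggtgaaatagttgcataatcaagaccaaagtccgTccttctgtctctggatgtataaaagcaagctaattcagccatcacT

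The libraries held 7305595 to 16108081 counts. Log2 levels correlated across genes at r = 0.872 to 0.979 within groups and 0.785 to 0.940 between groups, a description over genes, which are not independent. PR-SET7_LOBE replicate 1 was as near to WT (r = 0.907 and 0.940) as to the other libraries of its group (0.872 to 0.915). Levels are given as CPM, counts scaled to a common library size with TMM factors, which were lowest in WT (0.674 and 0.760) and reached 1.48 in PR-SET7_LOBE replicate 3. The targeted gene, listed as Setd8, had 51.9 and 56.0 CPM in WT, 62.6, 57.4, 47.9 and 46.5 in PR-SET7_LOBE, with 40.0 and 42.8 after DEN. It did not pass the test against WT (log2 fold change -0.01 ± 0.32 SE, adjusted p = 0.994, edgeR): counts over the whole gene were not lower in the libraries labelled PR-SET7_LOBE, and they do not separate the deleted part from the rest, so they check neither the label nor the deletion. That group name therefore means the libraries so labelled throughout. All 6 hepatocyte markers on the list were at 145 CPM or more in every library, and Alb, the serum albumin gene, at 9678 CPM or more.

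Liver P450 RNA was dominated by a few members, and their order differed between the groups. Compared per kilobase of exon, the highest levels in WT belonged to Cyp2e1, the ethanol- and nitrosamine-oxidising P450 (1340 ± 391 CPM per kb, SD, n = 2), then Cyp2d9, a steroid 16-alpha-hydroxylase (875 ± 580), Cyp2d10 (784 ± 361), Cyp2f2, which oxidises naphthalene (759 ± 322), and Cyp2d26 (754 ± 222). The 4 genes after Cyp2e1 in that order do not differ beyond their spread. In PR-SET7_LOBE the first places were held by Cyp2a5, the coumarin 7-hydroxylase (1660 ± 999 CPM per kb, n = 4), and Cyp2a4, a testosterone 15-alpha-hydroxylase (806 ± 731), followed by Cyp2e1 (545 ± 350), the ranges of all 3 overlapping. Cyp2a4 led in DEN_WT (1620 ± 738 CPM per kb, n = 2), ahead of Cyp2e1 (774 ± 143) and Cyp2a5 (482 ± 303). Cyp2d10, Cyp2d26 and, below, Cyp2a12 were singled out after their values were seen. At the low end, 5 members had too few counts to be tested: Cyp2ab1, Cyp2t4, Cyp2w1, Cyp4f39 and Cyp4x1 stayed at or under 1.41 CPM in every library.

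Summed over all 77 genes, P450 RNA was 14470 and 24320 CPM in WT, 13130, 16890, 11860 and 14240 CPM in the 4 PR-SET7_LOBE libraries and 15630 and 11990 after DEN, so the groups overlapped. The subfamilies did not move together. The Cyp2a sum was 725 and 1371 CPM in WT, 2628, 9888, 5798 and 2987 in PR-SET7_LOBE, with 5522 and 2851 after DEN, above both WT libraries in all 6. Cyp2c sums were 2595 and 2904 CPM in WT, 739, 938, 749 and 1657 in PR-SET7_LOBE, with 1885 and 2095 after DEN, below both WT libraries in all 6 on the TMM scale. Scaled by total counts instead, Cyp2c was at 1972 and 1957 CPM in WT, 647 to 2051 in PR-SET7_LOBE, with 2106 and 2198 after DEN. The direction after DEN thus turned, while Cyp2a stayed above both WT libraries in all 6. Cyp4f sums were below both WT libraries in all 6, with TMM and with total counts. Relative to the WT mean, the mean sum in PR-SET7_LOBE was 5.08-fold for Cyp2a, 0.999-fold for Cyp3a, and between 0.217-fold (Cyp4a) and 0.746-fold (Cyp1a) for the other 7 subfamilies compared. In DEN_WT the same ratio was 4.00 for Cyp2a, 1.26 for Cyp2b and 1.23 for Cyp3a, and lay between 0.248 (Cyp1a) and 0.724 (Cyp2c) for the other 6. With total counts the DEN_WT ratio was 6.21 for Cyp2a, 1.91 for Cyp2b, 1.88 for Cyp3a and 1.10 for Cyp2c. In PR-SET7_LOBE it was then 8.42 for Cyp2a, 1.68 for Cyp3a and 1.18 for Cyp1a, so Cyp1a turned. For the other 6 it lay between 0.367 (Cyp4a) and 0.688 (Cyp2d). On the TMM scale the mean sum over all genes was itself 0.642 of WT in PR-SET7_LOBE and 0.66 in DEN_WT. These ratios were not tested. In whole liver, fewer hepatocytes and less RNA per hepatocyte cannot be told apart.

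**Figure D1:**
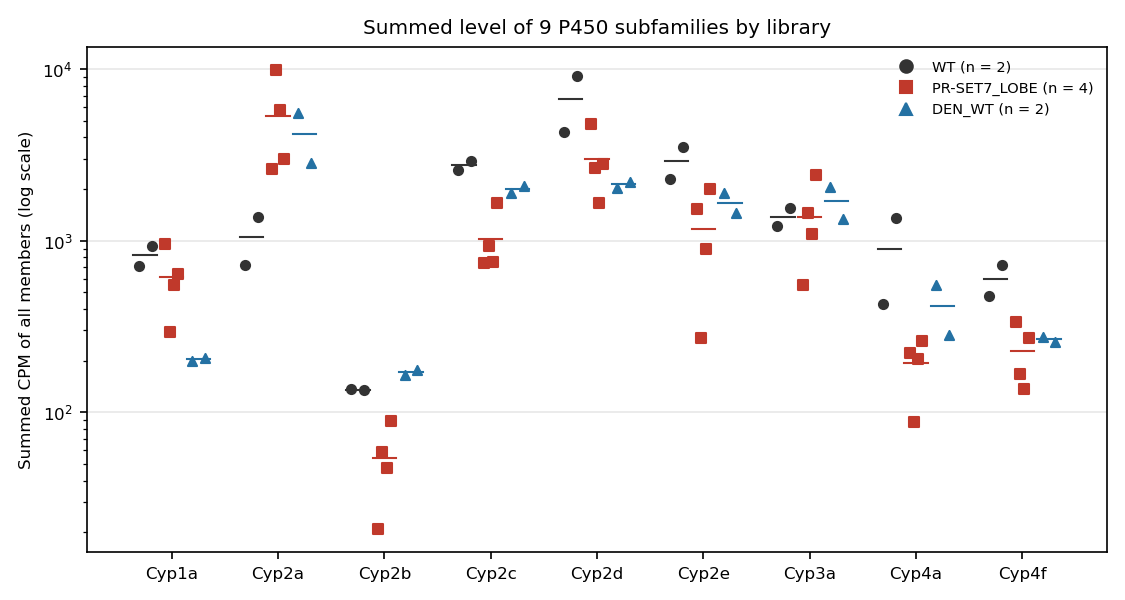
Summed CPM (log axis) of all members of 9 P450 subfamilies, 1 point per library and a bar at the group mean, for WT (circles, n = 2), PR-SET7_LOBE (squares, n = 4) and DEN_WT (triangles, n = 2). Cyp2a lies above both WT libraries in all 6 other libraries, and Cyp2c, Cyp2e and Cyp4f below both in all 6 on this TMM scale. With total counts 3 of 6 Cyp2c sums, 4 of 6 Cyp2e sums and all 6 Cyp4f sums lie below both WT libraries.

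Injection of DEN was compared with untreated wild type to see which P450s differed months after exposure. In DEN_WT livers 11 of the 72 tested P450s fell and 1 rose at an adjusted p under 0.05. The genes that fell were the AHR target Cyp1a1, Cyp2a22, Cyp2c39, the Cyp2d genes Cyp2d11, Cyp2d12, Cyp2d34 and Cyp2d40, the Cyp3a genes Cyp3a44 and Cyp3a57, and the fatty acid hydroxylases Cyp4a10 and Cyp4f40. Cyp2a4 rose 24.3-fold. Among all 17362 genes tested, 4.54% fell and 5.18% rose (9.73% in all), so the share of members that fell, 11 of 72, stood above that of all genes and the share that rose below it. The median log2 fold change of the 72 was -1.09, against 0.06 over all genes, and 55 of the 72 values were negative. Groups did not overlap, lower in DEN_WT, for 45 members, and higher for 10, where all genes gave 33.3% and 37.8% (71.2% in all). Scaled by total counts the numbers were 34 and 18 members, against 17.8% and 54.2% of all genes. With it the median log2 fold change was 0.65 over all genes and -0.44 over the members. The medians of Cyp1a, Cyp2a, Cyp2b, Cyp2c, Cyp2d, Cyp2e, Cyp3a, Cyp4a and Cyp4f kept their sign under all 4 scalings run. For Cyp2a and Cyp2b that sign is no common direction. In Cyp2a 2 values were negative and 2 positive on the TMM scale. In Cyp2b 3 were negative and 2 positive, and its sum was 1.26-fold WT. Members of Cyp2b near the floor, with means of 0.0954 and 0.0403 CPM per kb in DEN_WT, were among the negative ones. Whether the DEN_WT libraries were prepared and sequenced with the others is not given in the labels, so treatment and preparation cannot be told apart.

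The Cyp2d cluster on chromosome 15 held the most calls. Its enzymes hydroxylate steroids and many basic drugs. All 8 members were lower in both DEN_WT libraries than in both WT libraries, where 33.3% of all genes were. Scaled by total counts it was 7 of the 8, against 17.8% of all genes. Of the 8, 4 passed the test as lower, where 4.54% of all genes did. Cyp2d12 (mm9 chr15:82385538-82389843) had 167 and 454 CPM in WT and 17.0 and 16.5 in DEN_WT, an 18.5-fold difference (log2 fold change -4.21 ± 0.77, adjusted p = 0.00823). Cyp2d34 (chr15:82446395-82451337) went from 60.6 and 171 CPM to 8.68 and 10.5 (-3.59 ± 0.61, adjusted p = 0.00546). Both DEN_WT values of each gene lay under the lower WT value, and the WT libraries differed from each other by more than the DEN_WT libraries did. Cyp2d11 (chr15:82219584-82224452) had 287 and 712 CPM in WT and 47.4 and 78.3 in DEN_WT (-2.99 ± 0.64, adjusted p = 0.0162). Cyp2d40 (chr15:82590265-82594613) had 237 and 454 against 59.1 and 63.2 CPM (-2.50 ± 0.64, adjusted p = 0.0351). The other 4 members of the cluster did not pass: they included Cyp2d9, the most abundant by CPM, at 1235 and 3414 CPM in WT and 607 and 414 in DEN_WT (-2.19 ± 0.74, adjusted p = 0.0838).

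Family 1 enzymes oxidise polycyclic aromatic compounds and arylamines. Cyp1a1 (chr9:57545420-57551629) had 30.7 and 79.9 CPM in WT and 2.48 and 1.86 in DEN_WT, 25.4-fold lower (log2 fold change -4.67 ± 0.93, adjusted p = 0.0123). The groups did not overlap. Cyp1a2, the constitutive arylamine oxidase next to it, had 679.9 and 851 CPM against 197 and 207 and did not pass (-1.92 ± 0.58, adjusted p = 0.0598), although its groups did not overlap either. Cyp1b1, which is expressed mainly outside hepatocytes, went the other way in value, from 0.191 and 0.645 CPM to 2.39 and 1.24, without passing (adjusted p = 0.129).

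In the Cyp3a cluster on chromosome 5, whose products oxidise steroids, bile acids and a wide range of drugs, 2 of 9 members fell. They made up 22.2% of the subfamily, where 4.54% of all genes fell. Cyp3a57 (chr5:146106148-146151381) had 33.5 and 34.9 CPM in WT and 5.76 and 3.89 in DEN_WT (log2 fold change -2.82 ± 0.51, adjusted p = 0.00746). It was the member with the closest WT replicates among those called, and its call held in 7 of 8 fits that left out 1 library, the most of any member. Cyp3a44 (chr5:146585559-146617450), which is female-biased in mouse liver, had 66.3 and 133 CPM in WT and 20.0 and 10.3 in DEN_WT (-2.72 ± 0.74, adjusted p = 0.0434). Its call did not hold with upper-quartile scaling (adjusted p = 0.0541), total-count scaling (0.0865) or a stricter count filter (0.0524). The most abundant member by CPM, the PXR target Cyp3a11, had 727 and 825 CPM in WT and 1439 and 902 in DEN_WT (0.59 ± 0.68, adjusted p = 0.585), above WT in both libraries. Cyp3a25 was also higher in value, from 183 and 167 to 379 and 325 CPM (adjusted p = 0.238).

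Of the 15 Cyp2c genes on chromosome 19, epoxygenases of arachidonic acid and drug oxidases, 1 passed. That is 6.67% of them, where 4.54% of all genes fell and 9.73% passed in all. Cyp2c39 (chr19:39585352-39643019) had 46.2 and 92.0 CPM in WT and 1.24 and 12.0 in DEN_WT (log2 fold change -3.38 ± 0.91, adjusted p = 0.0421), with replicates of DEN_WT far apart. With total-count scaling it did not pass (adjusted p = 0.0618). Cyp2c29, the most abundant member by CPM, had 1365 and 1329 CPM in WT and 422 and 791 in DEN_WT (-1.15 ± 0.73, adjusted p = 0.312). Cyp2c70, which makes muricholic acids from bile acids, was higher in value, 172 and 197 against 661 and 551 CPM (1.72 ± 0.65, adjusted p = 0.112). Over the subfamily the median log2 fold change was -0.99, and 11 of 15 values were negative.

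Family 4 gave 1 call each in Cyp4a and Cyp4f. These were 1 of 6 and 1 of 7 tested members, where 4.54% of all genes fell. Cyp4f40 (chr17:32796355-32813632) had 6.41 and 18.0 CPM in WT and 0.266 and 0.177 in DEN_WT, where the 2 libraries held 5 counts together; the fitted log2 fold change was -5.71 ± 1.01 (adjusted p = 0.00691), and its size rests on those 5 counts. The PPARA target Cyp4a10 (chr4:115190869-115206254) had 15.1 and 32.6 CPM in WT and 4.96 and 5.56 in DEN_WT (-2.18 ± 0.52, adjusted p = 0.0261). It overlaps another gene model, AL627182.1, on the same strand, and its coding sequence is 97.2% identical to that of Cyp4a32: with the counts of both added up, an alternative chosen after seeing the data, the pair did not pass (adjusted p = 0.0535), nor did Cyp4a10 alone with total-count scaling (0.0806). All 6 Cyp4a values were negative, and 6 of 7 in Cyp4f.

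Against that background of lower values stood Cyp2a4 (chr7:27092209-27100107). It had 71.4 and 160.2 CPM in WT and 3723 and 1909 in DEN_WT (log2 fold change 4.60 ± 0.96, adjusted p = 0.0152). Both DEN_WT libraries were far above both WT libraries, yet the call was lost without either WT library, or without DEN_WT replicate 1. Its close copy Cyp2a5 had 247 and 338 CPM in WT and 1442 and 555 in DEN_WT and did not pass (1.77 ± 0.75, adjusted p = 0.148). The sum of both, which does not depend on how reads are divided between them, was 319 and 498 CPM in WT and 5165 and 2464 in DEN_WT and passed (3.22 ± 0.81, adjusted p = 0.0321). On the same chromosome Cyp2a22 (chr7:27716650-27724405) fell, from 95.1 and 239.6 CPM to 24.7 and 21.4 (-2.86 ± 0.61, adjusted p = 0.0162), while its close copy Cyp2a12 had 311 and 634 CPM against 332 and 365 (-0.44 ± 0.50, adjusted p = 0.586).

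**Figure D2:**
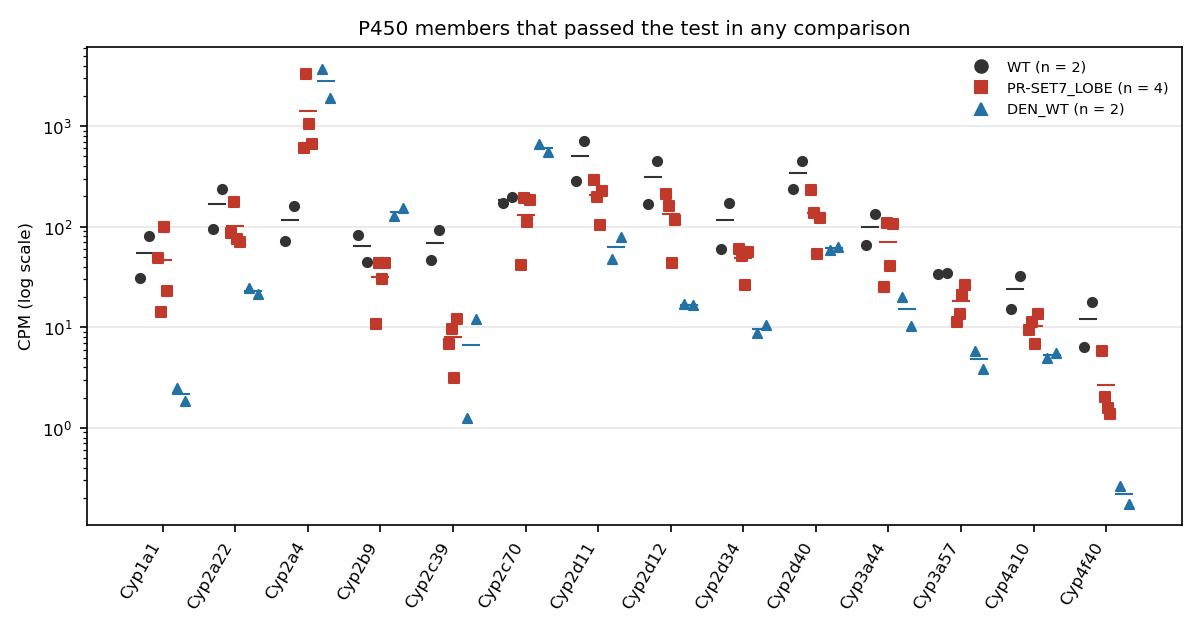
CPM (log axis) of the 14 P450 genes that passed the test in any comparison, 1 point per library and a bar at the group mean, for WT, PR-SET7_LOBE and DEN_WT. The DEN_WT points lie below both others for Cyp1a1, Cyp2a22, Cyp2d11, Cyp2d12, Cyp2d34, Cyp3a44, Cyp3a57, Cyp4a10 and Cyp4f40, and Cyp2a4 lies above WT in all 6 other libraries.

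The remaining subfamilies gave no call against WT after DEN. Cyp2e1 had 2301 and 3494 CPM in WT and 1887 and 1452 in DEN_WT (log2 fold change -0.80 ± 0.77, adjusted p = 0.516), lower in both libraries but within the error of the fit. In Cyp2b, whose members are phenobarbital-inducible or female-biased, the values diverged. Cyp2b10, the classical CAR target, had 30.7 and 60.8 CPM against 12.2 and 2.56 (-2.63 ± 0.82, adjusted p = 0.0665), and Cyp2b9, a female-biased gene, 82.8 and 44.8 against 126 and 154 (1.13 ± 0.61, adjusted p = 0.242). Of the 15 tested members outside the 9 main subfamilies, 10 had negative values, among them Cyp2f2 with 1076 and 1997 CPM in WT and 291 and 452 in DEN_WT (adjusted p = 0.0825).

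The calls of members depended on which libraries of the small groups were kept, and so did those over all genes. A WT or DEN_WT group that loses a library holds 1, so only effect sizes are given for such fits. The log2 fold change of Cyp2a4 was 5.40 without WT replicate 2 and 4.06 without DEN_WT replicate 1. That of Cyp2d40 was -1.85 without WT replicate 2 and -2.43 without DEN_WT replicate 1. Without PR-SET7_LOBE replicate 1, a library of neither group, 23 fell and 5 rose, where 11.9% and 14.6% of all genes did.

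The libraries labelled PR-SET7_LOBE were compared with wild type in the same fit. None of the 72 P450s passed the test in PR-SET7_LOBE by edgeR, where 0.248% of all genes did (0.15% higher, 0.0979% lower). At an unadjusted p under 0.05 there were 4 members higher and 22 lower, 5.56% and 30.6% of them, where all genes gave 11.1% and 6.08%. With DESeq2 4 rose and 8 fell, where 3.67% and 1.47% of all genes did. Groups did not overlap for 5 members that were higher and 24 that were lower, against 11.6% and 10.5% of all genes; scaled by total counts the numbers were 6 and 8, against 24.4% and 2.30%. By value, Cyp2a4 and Cyp2a5 stood 12.1-fold and 11.7-fold above WT and members of Cyp2b, Cyp2c, Cyp2d, Cyp4a and Cyp4f below it. The median log2 fold change of the members was -0.79, against 0.11 over all genes, and 56 of the 72 values were negative.

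Cyp2a5 had 247 and 338 CPM in WT and 1636, 5921, 4355 and 1822 in PR-SET7_LOBE (log2 fold change 3.55 ± 0.76, adjusted p = 0.092). It passed with total-count scaling (adjusted p = 0.0468), no filter (0.00172), DESeq2 (5.35e-07), limma voom (0.0338) and the replicate block (0.0362). Leaving out PR-SET7_LOBE replicate 1 gave 0.0211 by edgeR, so it passed in 6 of 17 alternatives. Cyp2a4 had 71.4 and 160.2 CPM in WT and 609, 3283, 1049 and 660.0 in PR-SET7_LOBE (3.60 ± 0.88, adjusted p = 0.117). It passed in 5 of 17 alternatives. For both genes the lowest PR-SET7_LOBE library was above the highest WT library, and replicate 2 was the highest. Their sum gave 319 and 498 CPM against 2245, 9204, 5404 and 2482 (3.57 ± 0.78, adjusted p = 0.0954). Cyp3a13 and Cyp1b1 were the other named members above WT in every library: Cyp3a13 had 15.3 and 15.9 CPM in WT and 32.0 to 75.7 in PR-SET7_LOBE (adjusted p = 0.124), and Cyp1b1 had 0.191 and 0.645 CPM in WT and 2.11 to 4.56 (adjusted p = 0.158). Cyp3a13 overlaps Gm15502 on the same strand.

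The lowest adjusted p of any member, 0.0798, belonged to Cyp4a32, with 22.0 and 36.3 CPM in WT and 8.27, 5.64, 8.73 and 8.56 in PR-SET7_LOBE (log2 fold change -1.90 ± 0.38). The male-biased fatty acid hydroxylase Cyp4a12a had 209 and 713 CPM in WT and 89.5, 22.3, 97.1 and 116 in PR-SET7_LOBE (-2.50 ± 0.63, adjusted p = 0.123). In Cyp4a, 5 of 6 members lay below both WT libraries in every PR-SET7_LOBE library, and in Cyp4f 4 of 7, where 10.5% of all genes did; scaled by total counts it was 3 and 2 members. Among the 4 was Cyp4f14, a leukotriene and fatty acid hydroxylase, with 300.4 and 468 CPM in WT and 169, 54.0, 43.9 and 167 in PR-SET7_LOBE (-1.82 ± 0.55, adjusted p = 0.167).

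The CAR-inducible Cyp2b10 and Cyp2c29, and Cyp2c39, were low by value in PR-SET7_LOBE. Cyp2b10 had 30.7 and 60.8 CPM in WT and 5.35, 3.16, 4.18 and 13.2 in PR-SET7_LOBE (log2 fold change -2.82 ± 0.65, adjusted p = 0.0989). Cyp2c29, which overlaps the pseudogene Cyp2c53-ps on the same strand, had 1365 and 1329 CPM against 257, 76.2, 244 and 503 (-2.32 ± 0.60, adjusted p = 0.133). Cyp2c39 had 46.2 and 92.0 CPM against 6.86, 9.66, 3.16 and 12.1 (-3.12 ± 0.70, adjusted p = 0.0964). The highest PR-SET7_LOBE value was under the lower WT value for each of these 3 genes.

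In Cyp2d and Cyp3a most values were negative in PR-SET7_LOBE, as they were after DEN, although with total-count scaling only 1 of 9 Cyp3a values stayed negative in PR-SET7_LOBE. All 8 Cyp2d values were negative against WT, with a median of -1.23. Of the 8, 2 were lower without overlap, where 10.5% of all genes were, and in the other 6 it was replicate 1 alone that reached the range of WT. Scaled by total counts 0 of the 8 were lower without overlap, against 2.3% of all genes. Cyp2d9 had 1235 and 3414 CPM in WT and 1510, 525, 398 and 724 in PR-SET7_LOBE (-1.56 ± 0.59, adjusted p = 0.237). Cyp2e1 had 2301 and 3494 CPM against 1538, 269.5, 899.6 and 2001 (-1.30 ± 0.64, adjusted p = 0.318), below WT in all 4. Of the 9 Cyp3a values 7 were negative, with a median of -0.25, and Cyp3a11 had 727 and 825 CPM in WT and 332, 840.4, 603 and 1621 in PR-SET7_LOBE (adjusted p = 0.925), on both sides of WT. Cyp1a1 likewise overlapped, with 48.4, 14.2, 99.4 and 22.9 CPM around the WT values of 30.7 and 79.9 (adjusted p = 0.86).

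The number of members that passed moved most without replicate 1 of PR-SET7_LOBE. Then 4 members rose (Cyp1b1, Cyp2a4, Cyp2a5 and Cyp3a13) and 13 fell (Cyp2b10, Cyp2c29, Cyp2c39, Cyp2c54, Cyp2d40, Cyp2d9, Cyp4a12a, Cyp4a31, Cyp4a32, Cyp4f13, Cyp4f14, Cyp4f15 and Cyp4f40), while the count over all genes went from 43 to 2392 (7.41% higher and 6.54% lower). With that library kept, no filter gave 3 higher and 8 lower members, and the replicate block 2 and 4. The labels give no reason to leave that library out. Scaling shifted all genes alike: with total counts the median of all genes moved from 0.11 to 0.79 and the members' median from -0.79 to -0.11, so that the distance between them was -0.90 before and -0.91 after. Under that scaling 14 members changed sign, and the Cyp1a and Cyp3a medians turned to 0.4 and 0.51. The Cyp2a, Cyp2c, Cyp2d, Cyp4a and Cyp4f medians kept their sign under TMM, RLE, upper-quartile and total-count scaling. In Cyp2a 2 values were negative and 2 positive with TMM, so its median is no common direction.

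**Figure D3:**
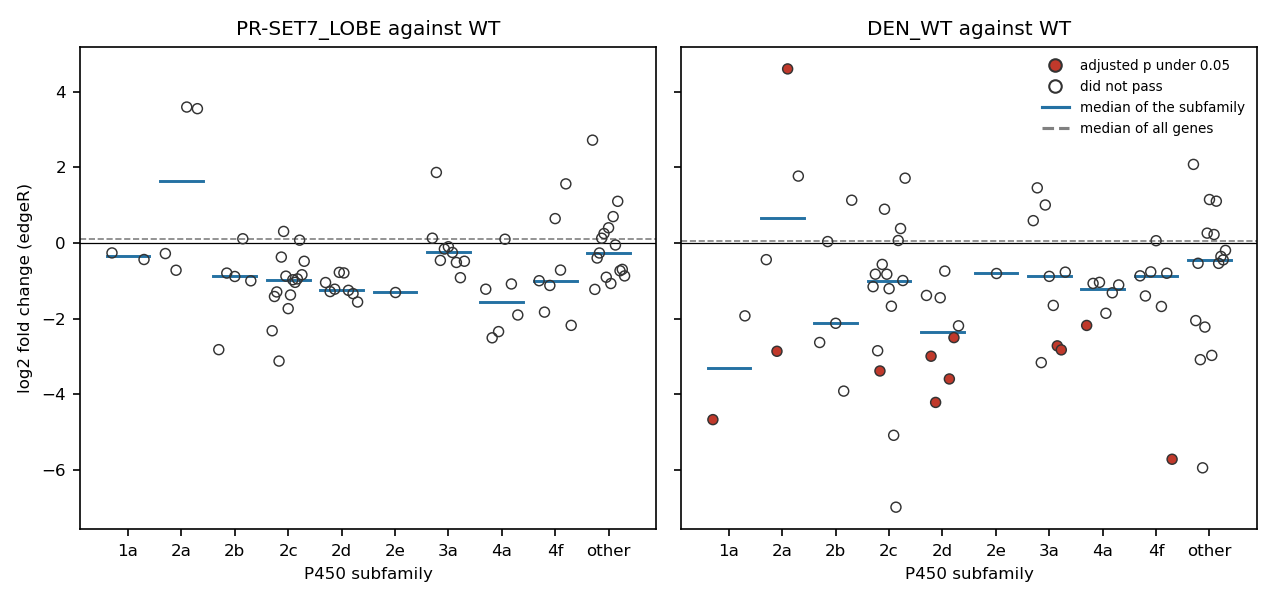
Log2 fold change (edgeR) of the 72 tested P450 genes by subfamily in PR-SET7_LOBE against WT (left) and DEN_WT against WT (right); filled points have an adjusted p under 0.05, solid bars are subfamily medians and the dashed line is the median of all genes. Both panels use the same 2 WT libraries; the left panel has no filled point and the right panel has 12, of which 4 are in Cyp2d.

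The libraries labelled PR-SET7_LOBE were also set against DEN_WT in the same fit. In PR-SET7_LOBE 6 members were higher than in DEN_WT (Cyp1a1, Cyp2a22, Cyp2d12, Cyp2d34, Cyp3a57 and Cyp4f40) and 2 lower (Cyp2b9 and Cyp2c70), 8 of 72 where 11.1% of all genes passed, so the share of members was that of the background (4.82% of all genes were higher and 6.26% lower). Cyp1a1 had the lowest adjusted p: 48.4, 14.2, 99.4 and 22.9 CPM in PR-SET7_LOBE against 2.48 and 1.86 in DEN_WT (log2 fold change 4.41 ± 0.89, adjusted p = 0.00905). Cyp2d34 had 60.4, 51.6, 26.4 and 56.7 against 8.68 and 10.5 CPM (2.34 ± 0.54, adjusted p = 0.0178), and Cyp2d12 had 214, 160.3, 43.4 and 117 against 17.0 and 16.5 (2.99 ± 0.69, adjusted p = 0.0184). Groups did not overlap for 21 members that were higher in PR-SET7_LOBE and 10 that were lower, where all genes gave 19.3% and 21.2% (40.5% in all). No PR-SET7_LOBE library of these 3 genes reached down to the DEN_WT values.

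The 2 members that were lower in PR-SET7_LOBE had their highest levels after DEN. Cyp2c70 (chr19:40227843-40261823) had 41.3, 193, 111 and 183 CPM in PR-SET7_LOBE and 661 and 551 in DEN_WT (log2 fold change -2.20 ± 0.52, adjusted p = 0.0211). Cyp2b9 (chr7:26958430-26995680) had 10.7, 43.3, 29.9 and 43.8 CPM against 126 and 154 (-2.13 ± 0.50, adjusted p = 0.0202). Cyp2a22, Cyp3a57 and Cyp4f40 were higher in PR-SET7_LOBE by 2.14 ± 0.55, 1.91 ± 0.45 and 3.54 ± 0.92 on the log2 scale (adjusted p = 0.0289, 0.0212 and 0.0314). Without either DEN_WT library none of the 8 passed.

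The ratio of counts within a pair of close copies lay apart in DEN_WT from the other 6 libraries for 3 of 4 pairs; these ratios were not tested. Cyp2a4 had 0.289 and 0.474 counts per count of Cyp2a5 in WT and 0.241 to 0.554 in PR-SET7_LOBE, but 2.58 and 3.44 in DEN_WT. The order of the 2 genes was thus the same in all 6 libraries of the first 2 groups and the opposite in both DEN_WT libraries. Cyp2a12 exceeded Cyp2a22 by 3.27 and 2.64 times in WT, 2.92 to 6.11 times in PR-SET7_LOBE and 13.4 and 17.1 times in DEN_WT. Cyp3a41a and Cyp3a41b, which differ at 2 of 1512 coding bases, stayed between 0.861 and 1.03 in WT and PR-SET7_LOBE and were at 1.65 and 1.24 in DEN_WT, and Cyp4a12a to Cyp4a12b (98.49% identity) ranged from 1.05 to 1.75 over all 8 libraries. The part of read assignment in these ratios was not tested.

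**Figure D4:**
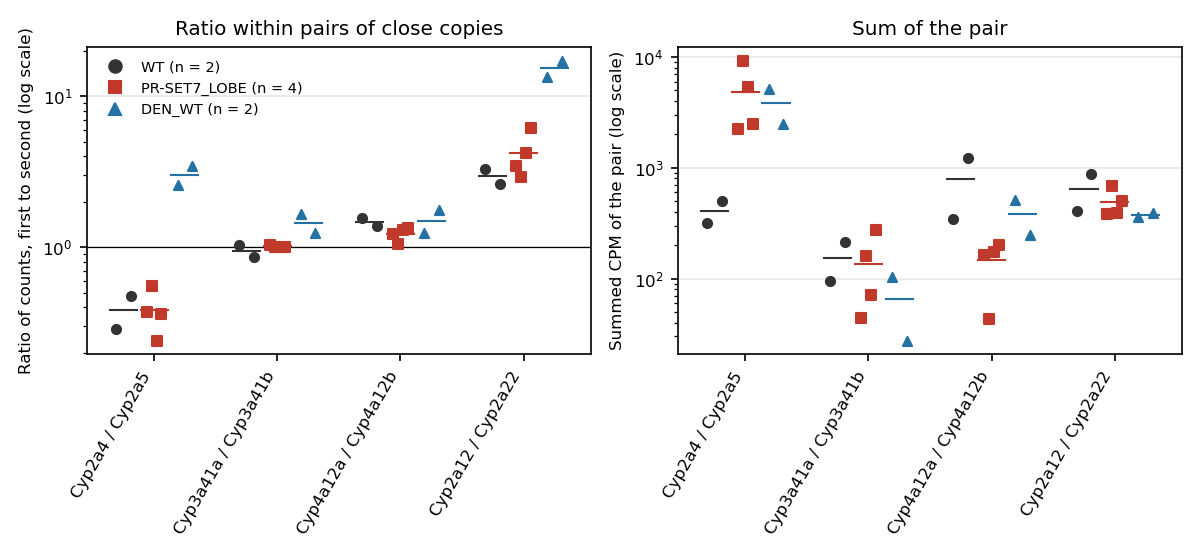
Ratio of counts within 4 pairs of close copies (left, log axis) and the CPM sum of each pair (right, log axis), 1 point per library with a bar at the group mean, for WT, PR-SET7_LOBE and DEN_WT. The Cyp2a4 to Cyp2a5 ratio is below 1 in the 6 WT and PR-SET7_LOBE libraries and above 1 in both DEN_WT libraries, while their sum is above WT in all 6 other libraries.

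Grouped by the receptor that induces them, the members showed the following. Of 3 AHR-inducible genes (Cyp1a1, Cyp1a2, Cyp1b1), 1 fell after DEN, where 4.54% of all genes did. All 6 CAR-inducible genes (Cyp2b10, Cyp2c29, Cyp2c37, Cyp2c50, Cyp2c54 and Cyp2c55) lay below both WT libraries in every PR-SET7_LOBE and every DEN_WT library, where 10.5% and 33.3% of all genes did. Scaled by total counts it was 2 and 4 of the 6, against 2.3% and 17.8% of all genes. By edgeR 0 of 6 passed in either contrast. At an unadjusted p under 0.05, 5 and 2 were lower, where all genes gave 6.08% and 12.9%. Without the count filter 3 of them passed in PR-SET7_LOBE, Cyp2b10 (adjusted p = 0.00704), Cyp2c29 (0.00666) and Cyp2c54 (0.0254), as they did with the replicate block (0.0276, 0.0354 and 0.0465). With these settings 0.499% and 0.3% of all genes passed as lower. Over the 18 alternatives run, Cyp2b10 passed in 5 in PR-SET7_LOBE, Cyp2c29 and Cyp2c54 in 4 each, and Cyp2c37, Cyp2c50 and Cyp2c55 in 0. After DEN Cyp2b10 passed in 7, Cyp2c54 and Cyp2c55 in 2 each, and Cyp2c29, Cyp2c37 and Cyp2c50 in 0. The median log2 fold changes of the 6 genes were -1.57 in PR-SET7_LOBE and -1.18 after DEN. The 3 PXR-inducible genes (Cyp3a11, Cyp3a13 and Cyp3a25) were all above both WT libraries after DEN, where 37.8% of all genes were. Scaled by total counts it was again all 3, against 54.2% of all genes. Their median was 1.01, and none passed. Among 4 PPARA-inducible genes (Cyp4a10, Cyp4a14, Cyp4a31 and Cyp4a32) 1 fell after DEN, where 4.54% of all genes did, and the median was -1.58. Both comparisons share the WT libraries, and the lists are short.

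Among 17 transcription factors that act on P450 genes, 1 passed against WT after DEN, 5.88% of them where 9.73% of all genes passed, and 0 in PR-SET7_LOBE. The 1 was Nr1i3, which encodes CAR itself. It had 172 and 215 CPM in WT, 66.4, 96.1, 89.4 and 77.8 in PR-SET7_LOBE, with 26.5 and 33.0 after DEN. It fell after DEN (log2 fold change -2.70, adjusted p = 0.00358) and did not pass in PR-SET7_LOBE (-1.23, adjusted p = 0.142), although all 6 libraries were below WT. Nr1i2, the gene of PXR, had 123 and 133 CPM in WT and 76.5 and 60.6 in DEN_WT (adjusted p = 0.264), and Ahr 27.9 and 18.4 against 25.2 and 26.8 (adjusted p = 0.799). Ppara had 197 and 181 CPM in WT and 68.6 and 69.1 in DEN_WT (adjusted p = 0.0563). The median over the 17 was -0.73 in PR-SET7_LOBE and -0.88 after DEN.

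P450s need electrons and heme. None of 5 measured partner proteins passed against WT in either contrast, and all 5 values were negative in both; Por, the P450 reductase, had 903 and 683 CPM in WT, 1120, 382, 218 and 145 in PR-SET7_LOBE, with 239 and 154 after DEN (adjusted p = 0.566 and 0.148). Replicate 1 of PR-SET7_LOBE was again on the WT side. Of 8 genes of heme synthesis 0 passed, with Alas1, the first and rate-limiting enzyme, at 439.7 and 1113 CPM in WT, 764, 564, 269.8 and 177 in PR-SET7_LOBE, with 362 and 218 after DEN. Of 4 genes of heme breakdown 0 passed against WT.

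Several P450s differ between male and female mouse livers. The male-biased genes Cyp2d9, Cyp4a12a and Cyp4a12b summed to 1578 and 4643 CPM in WT, 1673, 569, 571 and 926 in PR-SET7_LOBE, with 1117 and 661 after DEN; 0 of 3 passed. The 8 female-biased genes summed to 387 and 706 CPM in WT, 713, 3714, 1224 and 1197 in PR-SET7_LOBE, with 4029 and 2136 after DEN; Cyp2a4 was 71.4 and 160.2 CPM of these sums in WT and 3723 and 1909 after DEN. Within PR-SET7_LOBE, all 8 were lowest in replicate 1, and 4 were highest in replicate 2 (Cyp2a4, Cyp2c69, Cyp3a16 and Cyp3a44) and 4 in replicate 4. Of the male-biased genes, Cyp4a12a and Cyp4a12b were lowest in replicate 2 and Cyp2d9 in replicate 3. After DEN 1 of the 8 rose (Cyp2a4) and 1 fell (Cyp3a44), where 5.18% and 4.54% of all genes did. The female-biased genes thus did not move one way. Within that list Cyp3a16 had 29.2 and 89.6 CPM in WT and 10.1 and 3.18 in DEN_WT (adjusted p = 0.0563), and Cyp2b13 20.7 and 23.8 against 25.2 and 20.5 (adjusted p = 0.978).

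Of 8 male-biased and 4 tested female-biased liver genes outside these families 0 passed against WT by edgeR in either contrast (1 and 2 at an unadjusted p under 0.05 in PR-SET7_LOBE, 2 and 1 after DEN). After DEN 7 of the 8 male-biased genes had positive values, opposite in sign to the 3 male-biased P450s: their sum was 343 and 1570 CPM in WT, 688, 399, 181 and 909 in PR-SET7_LOBE, with 3657 and 3046 after DEN, and 2 of the 8 were lower in PR-SET7_LOBE than in DEN_WT. Within PR-SET7_LOBE, 5 of the 8 were lowest in replicate 2, 2 in replicate 3 and 1 in replicate 1, and 2 of the 8, Ugt2b38 and Cyp7b1, were highest in replicate 2; all 4 tested female-biased genes were highest there. Replicate 2 had the lowest levels of the male-biased Elovl3 (0.287 CPM, against 18.6 and 60.1 in WT), Hsd3b5 (0.670, against 8.90 and 120.3) and Slco1a1 (2.20, against 44.9 and 101.7), and the highest of the female-biased Sult2a1 (209.4, against 5.83 or less in every other library) and Fmo2 (51.4, against 14.9 or less). Cyp4a12a was also lowest there, at 22.3 CPM, and Cyp2a4 was the highest of its group, at 3283. Y-linked Ddx3y, Eif2s3y, Kdm5d and Uty were detected in all 8 libraries, and Xist was at 7.93 CPM or less in all. Their levels were not uniform. These 5 genes summed to 22.5 and 20.6 CPM in WT, 8.36, 7.94, 41.3 and 52.3 in PR-SET7_LOBE, with 108 and 82.2 after DEN. Of the 5, Ddx3y and Uty rose after DEN (adjusted p = 0.0433 and 0.0182, edgeR), where 5.18% of all genes did. The part of sex or of growth hormone in the P450 values was not tested.

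**Figure D5:**
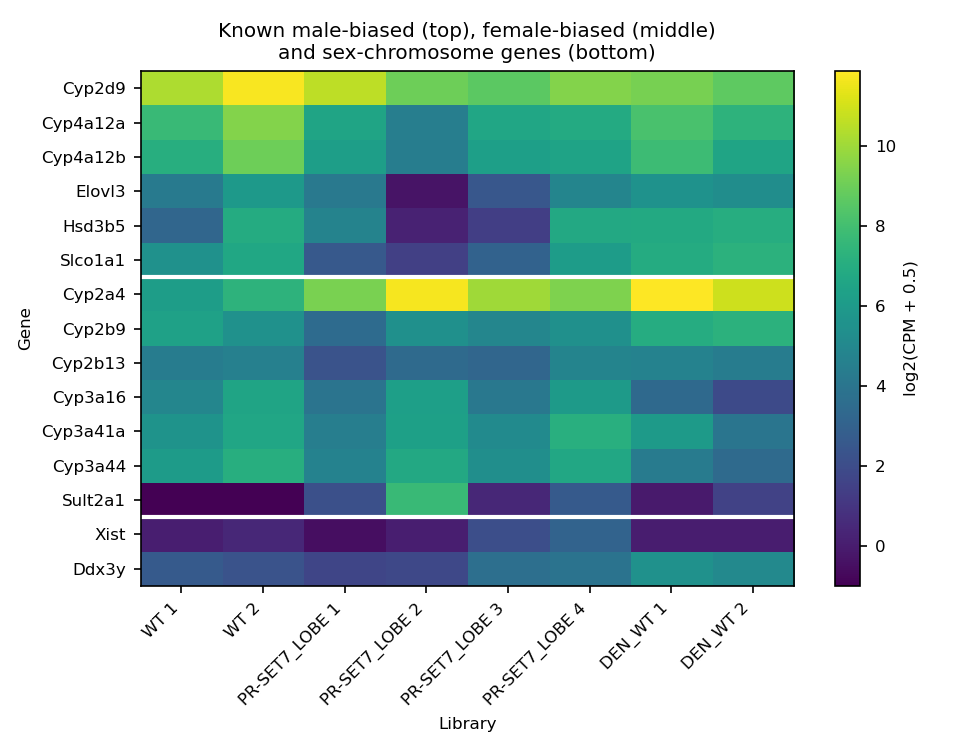
log2(CPM + 0.5), as colour, of 6 male-biased genes (top), 7 female-biased genes (middle) and the sex-chromosome genes Xist and Ddx3y (bottom) in each of the 8 libraries. PR-SET7_LOBE replicate 2 is darkest for Elovl3, Hsd3b5, Slco1a1 and Cyp4a12a and brightest for Sult2a1.

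Markers of other liver cells were read beside the P450s. Of 6 cholangiocyte markers 1 rose in both groups, the secreted protein gene Spp1, from 15.5 and 9.04 CPM in WT to between 68.8 and 249 in PR-SET7_LOBE (adjusted p = 0.0411) and 383 and 679 in DEN_WT (0.00215); the defining markers Krt19, Krt7 and Epcam stayed at or under 5.17 CPM everywhere. The summed cholangiocyte list was 29.6 and 19.0 CPM in WT, 100.2 to 271 in PR-SET7_LOBE and 399 and 697 in DEN_WT. Its median log2 fold change was 1.96 in PR-SET7_LOBE and 0.78 after DEN. At an unadjusted p under 0.05 (edgeR), 3 and 1 of the 6 were higher, where 11.1% and 16.0% of all genes were. None of 6 macrophage, 6 stellate and 6 endothelial markers passed against WT. Of 5 tested T and NK cell markers 1 fell after DEN (Cd3d) and of 5 B cell markers 1 (Cd22), where 4.54% of all genes did. In PR-SET7_LOBE 0 of either list passed against WT. There 1 T and NK marker and 3 B cell markers were higher at an unadjusted p under 0.05. The B cell median log2 fold change was 2.1 in PR-SET7_LOBE and -0.26 after DEN. Hepatocyte markers gave 0 of 6 calls, with sums of 105900 and 140800 CPM in WT, 44940 to 163600 in PR-SET7_LOBE and 121800 and 155600 in DEN_WT, so these sums overlapped between the groups, as the P450 sums did. The median log2 fold change of the 6 hepatocyte markers was -0.98 in PR-SET7_LOBE and -0.87 after DEN, with 5 of 6 negative in each, beside -0.79 and -1.09 for the P450s. The part of cell composition in the P450 values was not tested.

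P450 genes of other families, which make bile acids, steroids and retinoid metabolites, served for comparison. Of these 19 genes, 15 were tested: 0 rose and 1 fell in PR-SET7_LOBE, and 1 rose and 1 fell after DEN. Among all genes 0.15% rose and 0.0979% fell in PR-SET7_LOBE, and 5.18% and 4.54% after DEN. Their median log2 fold changes were -0.27 and -0.49, against -0.79 and -1.09 for families 1 to 4. The difference between these medians was not tested.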

How the data were processed

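The deposited files hold raw counts per Ensembl gene for 8 liver libraries read on an Ion Proton. The tools named in the submitters' processing notes are TopHat2 2.0.9 with the mm9 build, Cufflinks and DESeq; no source used here gives the counting tool, the annotation, strand or how multi-hit reads were treated. The deposited counts of all 8 libraries were fitted together in edgeR 4.0.16 under R 4.3.3 (filterByExpr, TMM, robust quasi-likelihood test, group as the only term), with Benjamini-Hochberg adjustment over the 17362 genes tested and a threshold of 0.05. Log2 fold changes carry their standard error. The common coefficient of variation was 0.479. CPM per kb uses exon lengths of GENCODE M21 (74 members matched by identifier, 3 by symbol); promoters are RefSeq's and matched 63 of 77 members. Coding sequences were aligned between members with biopython 1.88. Replicates were not duplicates of each other.

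The members, the 21 gene lists and the tests were chosen with earlier results of these data known. Named with values are all called members, in each main subfamily the most abundant member and those with the smallest p, other members with a mean CPM of 5 or more, and members of the sex-biased, inducible and DEN-activating lists. Alternatives were RLE, upper-quartile and total-count scaling, DESeq2 1.42.0, limma 3.58.1 (voom), no filter and a strict filter, a fit of only the contrasted groups, a block for the replicate number, each library left out, and near-identical members summed (at least 97% coding identity, added after seeing the data). The test was tried on simulated counts. One gene of the female-biased liver list is not reported here and is not in that list's counts. No counting intervals are given, because the libraries were amplified and carry no molecular identifiers.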

Additional observations from a re-analysis of the deposited data

Results flagged for a closer look

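Among 47 named members, 6 had 1 PR-SET7_LOBE library far from the other 3; chance alone flags about 1 in 20 groups. PR-SET7_LOBE replicate 2 was high for Cyp2a4 (3283 CPM) and Cyp2a22 (174.6 CPM) and low for Cyp4a32 (5.64 CPM). PR-SET7_LOBE replicate 4 was high for Cyp1b1 (4.56 CPM) and for Cyp2c50 (346 CPM), an arachidonic acid epoxygenase. PR-SET7_LOBE replicate 1 was high for Cyp4f40 (5.82 CPM).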

How the results depend on the processing

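Counts of called members moved with the settings, and the cause was not tested. In PR-SET7_LOBE against WT, 0 members were higher and 0 lower in the main fit. Higher members numbered 1 with total-count scaling, 3 with no filter, 4 with DESeq2 and 2 with limma voom. All genes gave 0.49%, 0.894%, 3.67% and 0.766% with these settings. Lower members numbered 8 with no filter, 8 with DESeq2 and 1 with limma voom, where all genes gave 0.499%, 1.47% and 1.46%. In DEN_WT against WT the main counts were 1 higher and 11 lower; higher members numbered 2 with total-count scaling, 4 with DESeq2, 8 with limma voom and 8 with only the 2 groups fitted, and lower members 17 with no filter, 20 with DESeq2, 32 with limma voom and 25 with only the 2 groups. In PR-SET7_LOBE against DEN_WT the main counts were 6 higher and 2 lower. By DESeq2 14 were higher, where 7.93% of all genes were. By limma voom 19 were higher and 4 lower, where 14.7% and 15.2% of all genes were. Leaving out 1 library gave 0 to 4 higher and 0 to 13 lower in the first comparison, 0 to 5 and 1 to 23 in the second, and 0 to 11 and 0 to 2 in the third, where a group left with 1 library takes its spread from the rest of the fit. Over all genes the calls ranged from 1 to 2392, 329 to 4549 and 454 to 2662 when 1 library was left out, and from 19 to 890, 1538 to 6335 and 1394 to 5188 under the other settings, around 43, 1689 and 1924. Total-count scaling raised the share of higher calls from 60.5% to 88.5% and from 53.3% to 73.3% in the 2 comparisons with WT. The replicate number used as a block gave 2 higher and 4 lower, 1 and 20, and 7 and 5 in the 3 comparisons, and Cyp3a57 lost its call against DEN_WT (adjusted p = 0.0539). Libraries with the same number deviated together at r = 0.165 and 0.106 between WT and PR-SET7_LOBE, 0.0599 between WT and DEN_WT, and -0.00874 and 0.02 between PR-SET7_LOBE and DEN_WT, so the numbers are not taken to pair samples.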
